A study of Mus musculus with 2 samples.

Results

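The chemokines Cxcl12 and Cxcl14 and the Cxcl12 receptors Cxcr4 and Ackr3, 4 of the 31053 genes measured, were followed by gene symbol through the cell types of the mouse genital tubercle, the embryonic bud of the external genitalia. Male and female tubercles at embryonic day 14.5 (Theiler stage 22) were profiled by droplet single-cell RNA sequencing from the 3' end of transcripts. All embryos were wild type, of strain C57BL/6, and 3 male and 3 female embryos from 2 litters were pooled by sex, so the data hold 1 male and 1 female library. Differences between embryos cannot be seen in a pool, and no difference between the sexes has a replicate check. Barcodes counted as cells if they held 2000 or more unique molecular identifiers (UMIs) from 500 or more genes, with no more than 10% of them mitochondrial. Once likely doublets were taken out, the male library kept 14872 cells and the female library 15910.

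Cxcl12 is a homeostatic chemokine that stromal cells release and that guides migrating cells such as blood progenitors, germ cells and growing vessels. Cxcr4 is its signalling receptor, coupled to inhibitory G proteins, whereas Ackr3 is an atypical receptor that binds and internalises Cxcl12 and so limits how much of it cells meet. Cxcl14 is a chemokine of epithelia and of some fibroblasts, and its signalling receptor is still debated. In developing vessels, Cxcr4 is known as a receptor of endothelial tip and arterial cells.

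Coordinates are those of the mm10 build with GENCODE M21 annotation. Cxcl12 (ENSMUSG00000061353) lies at chr6:117168535-117181367 on the plus strand, and Cxcr4 (ENSMUSG00000045382) at chr1:128588199-128592293 on the minus strand. Ackr3 (ENSMUSG00000044337) lies at chr1:90203980-90216751 on the plus strand, and Cxcl14 (ENSMUSG00000021508) at chr13:56288643-56296551 on the minus strand. All 4 are protein-coding and none overlaps another annotated gene. The 4 annotated Cxcl12 transcripts end at positions 117175069, 117176127, 117181366 and 117181367, and the counts, summed per gene, do not separate them. The starts are shown because the 4 genes differ so widely in the cells that hold their transcripts. Given here are the 120 bases that precede each RefSeq start, 5′ to 3′ on the gene's own strand, from RefSeq (GRCm38.p6). Capitals mark the letters TATAAA, the core promoter element that binds the general transcription machinery, on either strand. They also mark the box of letters GGGCGG, bound by Sp family factors, on either strand.
Cxcl12 (chr6:117168415-117168534, plus strand): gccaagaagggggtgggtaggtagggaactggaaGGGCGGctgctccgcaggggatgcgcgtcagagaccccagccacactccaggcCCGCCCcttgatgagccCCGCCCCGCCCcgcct
Cxcr4 (chr1:128592300-128592419, minus strand): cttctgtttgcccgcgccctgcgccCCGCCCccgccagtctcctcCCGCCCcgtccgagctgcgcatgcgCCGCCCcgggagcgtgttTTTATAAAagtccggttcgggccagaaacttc
Ackr3 (chr1:90203860-90203979, plus strand): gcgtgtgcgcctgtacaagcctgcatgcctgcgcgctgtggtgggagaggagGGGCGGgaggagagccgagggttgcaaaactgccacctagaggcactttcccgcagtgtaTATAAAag
Cxcl14 (chr13:56296552-56296671, minus strand): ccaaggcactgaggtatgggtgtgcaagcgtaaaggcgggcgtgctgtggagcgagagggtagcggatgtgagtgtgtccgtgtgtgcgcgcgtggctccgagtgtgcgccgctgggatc
Over the window from 250 bases before to 50 after the start, TATAAA was found in both receptor genes, with 2 overlapping matches on opposite strands in Cxcr4 and 1 match in Ackr3, and in neither ligand gene. Of all 32851 RefSeq promoter windows of that length, 13.62% hold it. GGGCGG was found 5 times in Cxcl12, 3 times in Cxcr4, once in Ackr3 and 3 times in Cxcl14, where the matches follow the start, and 35.66% of all windows hold it. ACGTG, a form of the core of the hypoxia response element, was in no member's window and in 19.62% of all windows. The form that begins with G, GCGTG, was not searched for, and the bases shown for Cxcr4, Ackr3 and Cxcl14 hold it. These matches describe letters in the sequence and say nothing of a factor's binding.

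The male library held 130105692 UMIs and the female library 144515562, and the kept cells had median depths of 4892.5 and 4887 UMIs. Cell barcodes found in both libraries numbered 65. Cells fell into 28 clusters, built without the 4 members, and clusters were named from marker lists that hold no member. The mesenchyme-like class held 14188 male and 15383 female cells, the endothelium-like class 134 and 79, the epithelium-like class 142 and 87, the immune-like class 44 and 33, and the erythroid-like class 124 and 213. Glia and neural crest-like cells numbered 32 and 51, and skeletal muscle-like cells 19 and 54. A smooth muscle-like cluster held 169 male cells and 1 female cell, so library and type cannot be told apart there. Levels are a gene's UMIs as counts-per-million (CPM) of all UMIs, added up over all cells of the class and library in question. Every interval is an exact 95% interval and covers counting error only.

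Cxcl12 was a mesenchymal transcript, and its signalling receptor Cxcr4 was highest in endothelium-like cells, whose Cxcr4 level was 35.9 times that of mesenchyme-like cells in the male library and 40.0 times in the female library. The summed level of Ackr3 in epithelium-like cells was within counting error of that in mesenchyme-like cells, which held 94.9% and 96.7% of all Ackr3 UMIs. Cxcl14 was highest in epithelium-like cells and lowest, among classes of at least 50 cells in each library, in endothelium-like cells.

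**Figure D1:**
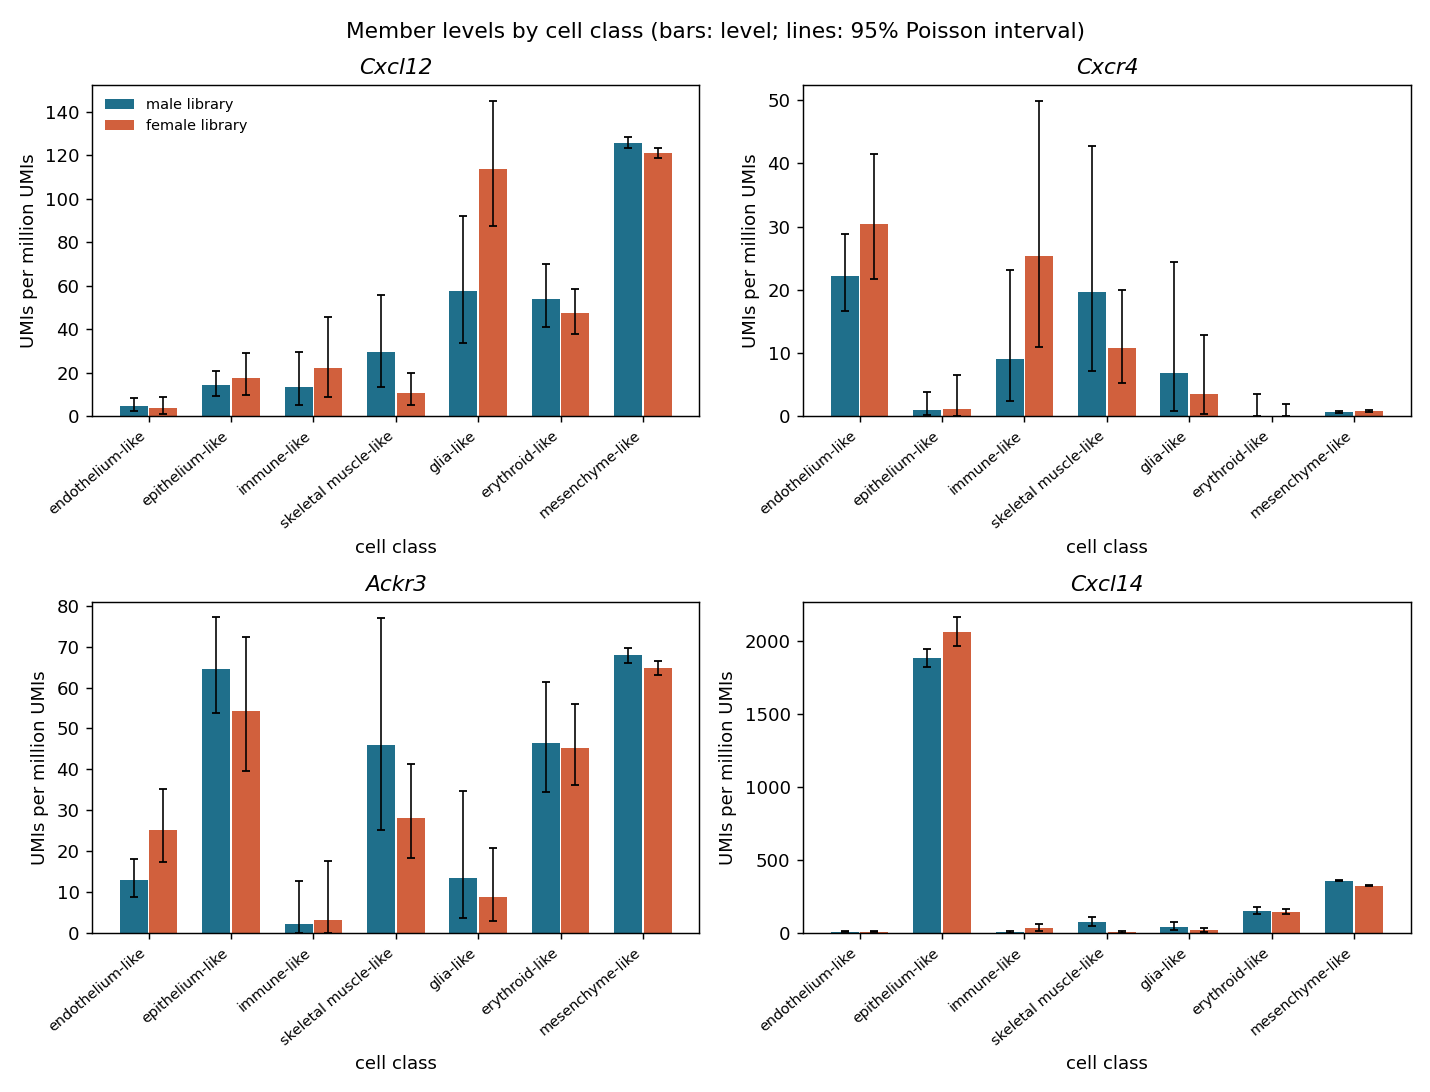
Levels of Cxcl12, Cxcr4, Ackr3 and Cxcl14 (CPM, each panel with its own axis) in 7 cell classes of the male and the female library, with exact 95% Poisson intervals for counting error. Cxcl12 stands highest in mesenchyme-like cells in the male library, at 125.8 CPM, Cxcr4 is near 0 there, and Cxcl14 reaches 1882 and 2060 CPM in epithelium-like cells.

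Cxcl12 was at 125.8 CPM (interval 123.3 to 128.3) in male and 121.0 CPM (118.7 to 123.3) in female mesenchyme-like cells. These cells, 95.4% and 96.7% of all cells, held 97.0% and 98.2% of all Cxcl12 UMIs. In endothelium-like cells it was at 4.84 CPM (12 counts) and 3.81 CPM (5 counts), a log2 ratio to mesenchyme-like cells of -4.70 (interval -5.65 to -3.90) in the male and -4.99 (-6.61 to -3.77) in the female library. Of the 12 male counts, 8 lay in the 30 cells of the arterial-like endothelial subcluster, at 17.1 CPM (7.40 to 33.8), and 1 cell held 5 of them, without which the level there was 7.08 CPM (1.46 to 20.7). Barcodes of 10 to 100 UMIs, taken as free RNA, held 109 and 106 CPM of Cxcl12, and haemoglobin UMIs put the share of free RNA in mesenchyme-like cells at 2.56% and 2.85%, which amounts to 2.79 and 3.01 CPM of Cxcl12. Both of these lie within the intervals of the endothelial level (2.50 to 8.45 and 1.24 to 8.89 CPM), and the part of free RNA in it was not tested.

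Epithelium-like cells had 14.2 and 17.7 CPM of Cxcl12 and immune-like cells 13.6 and 22.2 CPM, against the mesenchymal 125.8 and 121.0 CPM. Male smooth muscle-like cells had 103.4 CPM (88.4 to 120.1). Erythroid-like cells had 54.0 and 47.4 CPM, and the 8 mesenchyme markers (Col1a1, Pdgfra, Twist1 and others) were summed there to 39.5% and 43.2% of their mesenchymal level, with none at 0. Glia and neural crest-like cells had 57.5 CPM (33.5 to 92.0) in the male library, and the female library had 113.6 CPM (87.5 to 145.1), beside mesenchyme markers at 25.7% and 19.8%. The part of these markers' cells or RNA in the Cxcl12 of both classes was not tested. Among genes compared between erythroid-like and mesenchyme-like cells, 41% were lower by a log2 ratio of at least 1 in both libraries, Cxcl12 and Cxcl14 among them, and 1.23% were higher, with no member. The 8 erythroid markers, with haemoglobin genes among them, took up 459107 and 462516 CPM in erythroid-like cells. That share lowers the CPM of every other gene there, the members and the mesenchyme markers included, and no level was rescaled for it. In glia and neural crest-like cells 7.63% were lower, with Ackr3 and Cxcl14, and 8.22% were higher, with Cxcr4 at 2 counts in each library.

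Cxcr4, the signalling receptor, was rare in the tubercle, with 121 male and 129 female UMIs in all cells. Endothelium-like cells, 0.901% of male and 0.497% of female cells, held 45.5% and 31.0% of them, and the far more numerous mesenchyme-like cells 39.7% and 52.7%. Their level was 22.2 CPM (16.7 to 28.9; 55 counts) in the male library, and the female library had 30.5 CPM (21.8 to 41.5; 40 counts), against 0.617 CPM (48 counts) and 0.761 CPM (68 counts) in mesenchyme-like cells. The log2 ratio was 5.17 (4.58 to 5.76) and 5.32 (4.72 to 5.91), and the intervals of both classes lay far apart in both libraries. Of the genes with at least 100 counts over both classes and libraries, 10.9% were likewise higher in endothelium-like cells by a log2 ratio of at least 1 in both libraries, and 20.8% were lower by that much, among them Cxcl12, Ackr3 and Cxcl14.

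The share of cells with a Cxcr4 UMI was also higher in endothelium-like cells at equal depth. With each cell thinned to 2000 UMIs, 5.97% of male and 5.06% of female endothelium-like cells had a Cxcr4 UMI, against 0.092% and 0.124% of mesenchyme-like cells. Unthinned, at median depths of 13568.5 and 11332 UMIs in endothelium-like and 4808.5 and 4829 UMIs in mesenchyme-like cells, the shares were 20.9% and 27.8% against 0.331% and 0.436%. Erythroid-like cells, at median depths of 7926.5 and 8389 UMIs, had no Cxcr4 UMI in 124 male and 213 female cells, for which the interval reaches 2.93% and 1.72%.

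Immune-like cells had 9.06 CPM of Cxcr4 (4 counts) and 25.3 CPM (8 counts), a log2 ratio to mesenchyme-like cells of 3.88 (1.94 to 5.33) and 5.06 (3.79 to 6.12). In that comparison 9.99% of genes were higher by at least 1 in both libraries, and 16.7% lower, as were the other 3 members. Skeletal muscle-like cells, whose migrating progenitors are known to carry Cxcr4, had 19.7 CPM (6 counts) and 10.8 CPM (10 counts). The intervals of endothelium-like, immune-like and skeletal muscle-like cells overlap in the male library, and in the female library skeletal muscle-like cells (5.19 to 19.9 CPM) lie below endothelium-like cells (21.8 to 41.5 CPM). A small unnamed cluster led by the mast cell protease genes Cma1 and Cpa3 had 4 counts in 20 male cells and 0 in 9 female cells, and epithelium-like cells had 2 and 1 counts.

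Ackr3, the scavenging receptor, had like summed levels in epithelium-like and mesenchyme-like cells. Mesenchyme-like cells had 67.9 CPM (66.1 to 69.7) in the male library, and the female library had 64.8 CPM (63.1 to 66.4). Epithelium-like cells, at 64.7 CPM (53.7 to 77.1) and 54.2 CPM (39.7 to 72.3), had a log2 ratio to them of -0.07 (-0.34 to 0.19) and -0.26 (-0.71 to 0.16). Those intervals leave out a difference of a log2 of 1 in either direction. Thinned to 2000 UMIs, 9.15% (4.97 to 15.1) of male and 4.6% (1.27 to 11.4) of female epithelium-like cells had an Ackr3 UMI. In mesenchyme-like cells the shares were 11.9% (11.4 to 12.5) and 11.8% (11.3 to 12.3). These intervals overlap the epithelial ones, in the female library only at their ends, and the female epithelial share was the lower. Overlap alone does not show that the shares are alike. Unthinned, the shares were 34.5% and 28.7% at median depths of 7516.5 and 6469 UMIs, against 27.3% and 27.5%, and the highest single epithelium-like cells held 11 and 6 Ackr3 UMIs. Endothelium-like cells had 12.9 CPM (32 counts) and 25.1 CPM (33 counts), a log2 ratio of -2.40 (-2.95 to -1.90) and -1.37 (-1.91 to -0.87). The free RNA level of Ackr3, as estimated in mesenchyme-like cells, came to 1.87 and 2.84 CPM. Immune-like cells had 1 count in each library.

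Cxcl14 was at 1882 CPM (1821 to 1945) in male and 2060 CPM (1964 to 2159) in female epithelium-like cells, against 357 and 322 CPM in mesenchyme-like cells. The log2 ratio was 2.40 (2.35 to 2.45) and 2.68 (2.61 to 2.75). Genes higher by at least 1 in both libraries made up 6.61% in this comparison, and 11.2% were lower, Cxcl12 among them. Thinned to 2000 UMIs, 70.4% and 64.4% of epithelium-like cells had a Cxcl14 UMI, against 37.3% and 36.2% of mesenchyme-like cells, and the highest single epithelium-like cells held 223 and 279 UMIs. Unthinned shares were 78.2% and 73.6%, against 54.9% and 54.7%, and endothelium-like cells had 11.2% and 10.1% unthinned and 2.24% and 1.27% thinned. Since mesenchyme-like cells are so many, they still held 87.4% and 93.3% of all Cxcl14 UMIs, and epithelium-like cells 11.3% and 5.67%. Endothelium-like cells had 7.25 and 8.38 CPM. The free RNA level of Cxcl14 estimated in mesenchyme-like cells was 8.92 and 8.86 CPM. It was not estimated in endothelium-like cells, whose median depth was greater, and the part of free RNA in their Cxcl14 was not tested. The 10 epithelium markers were summed in mesenchyme-like cells to 0.568% and 0.426% of their epithelial level, with none at 0.

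Endothelium-like cells were not uniform in Cxcr4. Divided once more, they gave a subcluster of 30 male and 19 female cells led by Eln and Gja5, in which the arterial list (Gja4, Gja5, Hey1, Dll4, Sox17, Efnb2) stood 2.01 above the other endothelium-like cells on the log2 scale. These arterial-like cells had 79.2 CPM of Cxcr4 (37 counts) in the male and 78.0 CPM (23 counts) in the female library, against 8.94 and 16.7 CPM in the other endothelium-like cells. The log2 ratio was 3.15 (2.30 to 4.05) and 2.22 (1.26 to 3.22). Subclusters were formed without the members, but from few cells, and the arterial genes are those that defined the subcluster.

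The subcluster led by the cell cycle genes Fbxo5 and Top2a had 9.76 and 19.5 CPM of Cxcr4 (15 and 12 counts), and the one led by haemoglobin genes 6.29 and 12.4 CPM (3 and 5 counts). Ackr3 was at 64.4 CPM (19 counts) in the female arterial-like cells, against 13.8 CPM in the other female endothelium-like cells, a log2 ratio of 2.23 (1.15 to 3.34). In the male library it was at 21.4 CPM (10 counts) against 10.9 CPM, and the interval of that ratio holds 0 (-0.27 to 2.11).

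**Figure D2:**
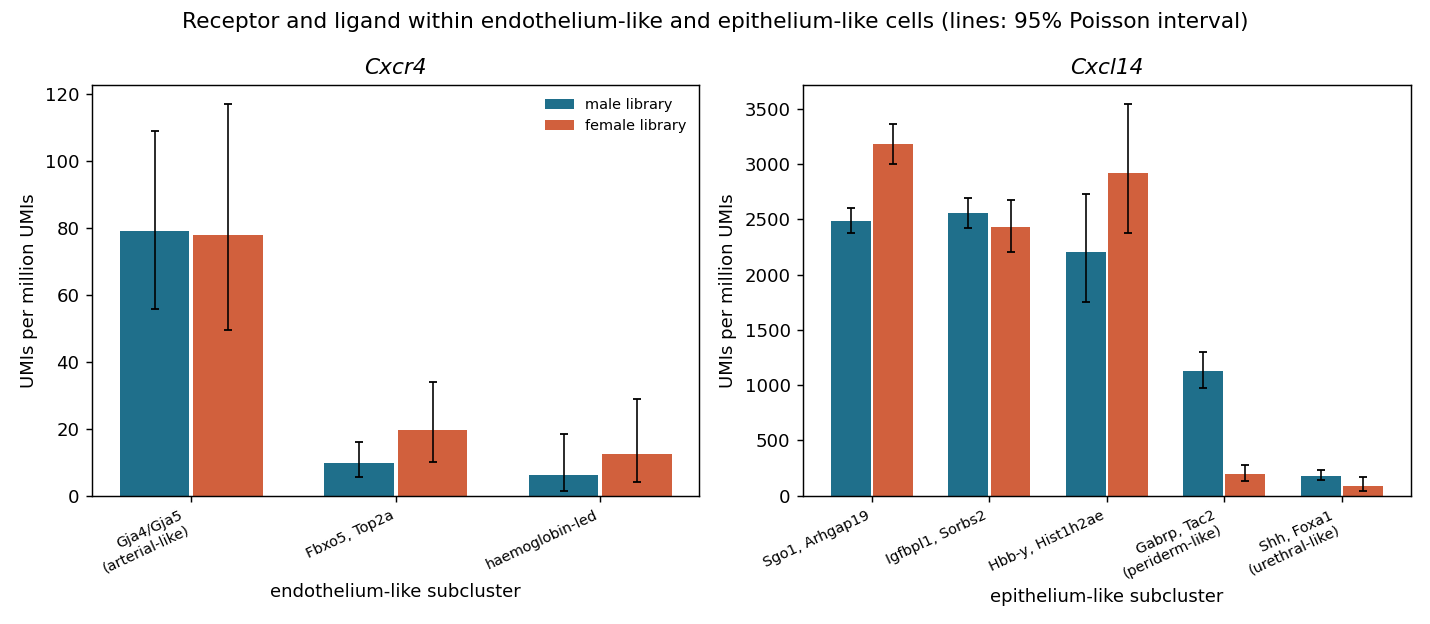
Levels of Cxcr4 in 3 endothelium-like subclusters and of Cxcl14 in 5 epithelium-like subclusters (CPM) of the male and the female library, with exact 95% Poisson intervals and subclusters labelled by leading genes. The arterial-like cells stand apart for Cxcr4 at 79.2 and 78.0 CPM, and the urethral-like cells are lowest for Cxcl14 at 181 and 89.4 CPM, where 1 male cell holds 81.1% of the UMIs and the level without the highest cell is 40.3 and 54.8 CPM.

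Epithelium-like cells were divided for Cxcl14. The urethral-like subcluster (25 male and 17 female cells), led by Shh and Gpx2, had 181 CPM (74 counts) in the male library, and the female library had 89.4 CPM (10 counts), against 2346 and 2359 CPM in the other epithelium-like cells, a log2 ratio of -3.69 (-4.05 to -3.36) and -4.72 (-5.79 to -3.84). In the male library 1 cell held 60 of the 74 UMIs (81.1%), and only 6 of the 25 cells had any. Without the cell of most UMIs in each library the levels were 40.3 CPM (14 counts) and 54.8 CPM (6 counts), log2 ratios of -5.86 and -5.43, a measure added after seeing the data. Shh marks the endodermal urethral plate, the signalling centre of the tubercle. The 3 subclusters led by Sgo1, by Igfbpl1 and by Hbb-y had 2490, 2558 and 2205 CPM in the male library and 3181, 2432 and 2917 CPM in the female library. A periderm-like subcluster, led by Gabrp and Tac2, had 1129 CPM (199 counts in 21 cells) in the male library, and the female library had 197 CPM (31 counts in 16 cells). Of the male UMIs 1 cell held 141 (70.9%), and without the highest cell of each library the levels were 440 CPM (334 to 569) and 139.7 CPM (86.5 to 213.5). Ackr3 was lower in the male urethral-like cells, at 19.6 CPM (8 counts, 5 of them in 1 cell) against 76.9 CPM in the other male epithelium-like cells, but at 62.6 CPM (7 counts) against 53.0 CPM in the female library.

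Within the mesenchyme, both ligands varied more than most genes, and their extremes lay in opposite places. The 20 mesenchyme-like clusters were grouped into 8 domains by lists of patterning genes, and 2 clusters fell under no list. Cxcl12 was highest in the domain of Tcf21 and Aldh1a2, a mesodermal transcription factor and a retinoic acid synthesising enzyme, and lowest in the domain of Dlx1, Dlx2 and Runx1. Cxcl14 was highest in that last domain and lowest in the domains of Tcf21, of Foxd1 and of Ogn. Not all domains were opposed, as that of Scx and Sox9 lay below the other mesenchyme-like cells in both ligands (log2 -0.70 and -0.49 for Cxcl12, -1.71 and -1.63 for Cxcl14). Over the clusters, the log2 range of Cxcl12 was 4.32 and of Cxcl14 4.76, larger than in 96.2% and 97.4% of 9550 well-counted genes, whose median range was 0.91.

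**Figure D3:**
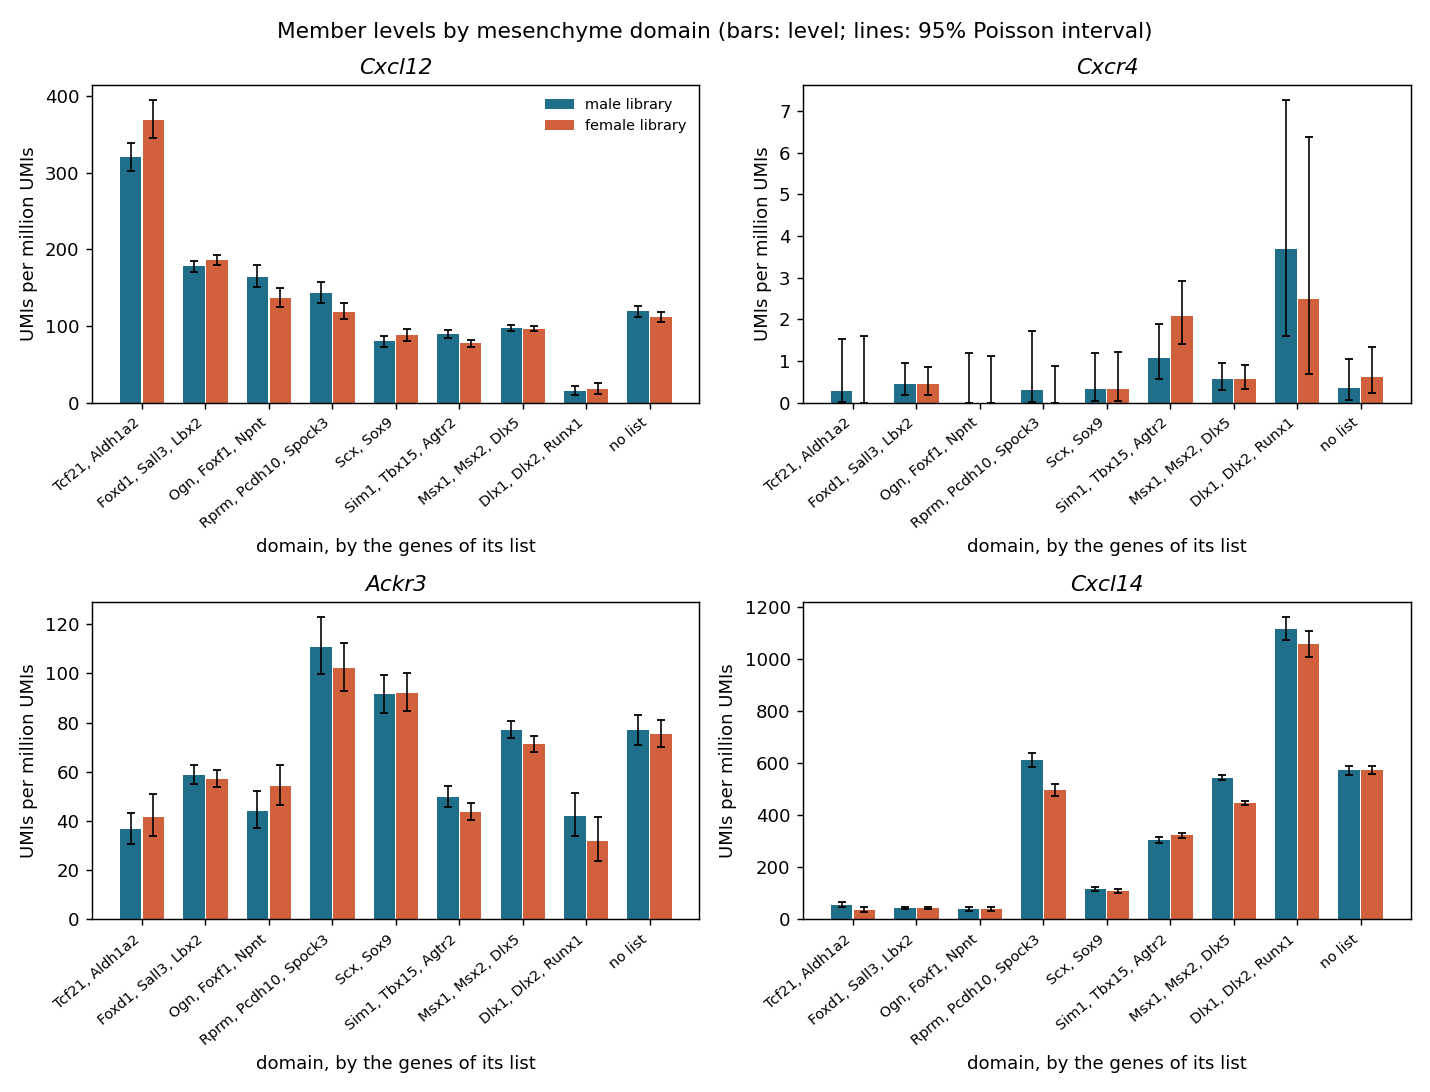
Levels of Cxcl12, Cxcr4, Ackr3 and Cxcl14 (CPM, each panel with its own axis) in 8 mesenchyme domains and in clusters under no list, for the male and the female library, with exact 95% Poisson intervals. Cxcl12 spans 320 and 369 CPM in the Tcf21 and Aldh1a2 domain down to 15.2 and 17.4 CPM in the Dlx1, Dlx2 and Runx1 domain, where Cxcl14 is at 1117 and 1056 CPM.

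Cxcl12 was at 320 CPM (302 to 339) in male and 369 CPM (345 to 395) in female cells of the Tcf21 and Aldh1a2 domain (839 and 539 cells), against 116.2 and 114.4 CPM in the other mesenchyme-like cells. The log2 ratio was 1.46 (1.37 to 1.55) and 1.69 (1.59 to 1.79), and 4.01% of genes were higher there by at least 1 in both libraries. Next came the domain of Foxd1, Sall3 and Lbx2, with 178 and 186 CPM, and that of Ogn, Foxf1 and Npnt, with 165 and 137 CPM. In the Rprm, Pcdh10 and Spock3 domain Cxcl12 was at 143 and 119 CPM. The domains of Msx1, Msx2 and Dlx5 (97.5 and 96.6 CPM), of Sim1, Tbx15 and Agtr2 (89.3 and 77.5 CPM) and of Scx and Sox9 (80.0 and 87.9 CPM) lay below these, and the last of them overlaps both others in at least 1 library within counting error.

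In the Dlx1, Dlx2 and Runx1 domain (516 male and 400 female cells, led by Ndufa4l2 and Vgll2) Cxcl12 had 33 counts, 15.2 CPM, in the male and 28 counts, 17.4 CPM, in the female library. Against 129.0 and 122.9 CPM in the other mesenchyme-like cells this was a log2 ratio of -3.09 (-3.63 to -2.59) and -2.82 (-3.41 to -2.28), in a comparison where 7.57% of genes were lower by at least 1 in both libraries. Thinned to 2000 UMIs, 2.33% and 2.50% of its cells had a Cxcl12 UMI, against 40.6% and 47.9% in the Tcf21 and Aldh1a2 domain. Unthinned the shares were 6.40% and 6.00% against 59.6% and 65.1%, at median depths of 3981.5 and 3823 UMIs against 4044 and 3782 UMIs.

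Cxcl14 in the Dlx1, Dlx2 and Runx1 domain was at 1117 CPM (1073 to 1162) in the male library, and the female library had 1056 CPM (1006 to 1108), against 335 and 309 CPM in the other mesenchyme-like cells, a log2 ratio of 1.74 (1.67 to 1.80) and 1.78 (1.70 to 1.85). Here 4.45% of genes were higher by at least 1 in both libraries. Thinned, 84.7% and 83.5% of the domain's cells had a Cxcl14 UMI, more than in the epithelium-like class, and unthinned 96.5% and 94.8%. The Rprm domain, with 613 and 497 CPM, and the Msx1, Msx2 and Dlx5 domain, with 544 and 448 CPM, followed it, and the clusters under no list had 572 and 573 CPM.

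At the other end, Cxcl14 was at 44.2 and 44.1 CPM in the Foxd1 domain, 40.8 and 39.3 CPM in the Ogn domain and 56.9 and 37.3 CPM in the Tcf21 and Aldh1a2 domain. Their log2 ratios to the other mesenchyme-like cells were -3.29 and -3.16, -3.18 and -3.08, and -2.71 and -3.14, and 3.28%, 5.33% and 5.52% of genes were lower by at least 1 in those comparisons. The Scx and Sox9 domain, of tendon and cartilage precursors, had 115.6 and 108.7 CPM, with log2 ratios of -1.71 and -1.63 where 5.8% of genes were lower by as much. The 3 lowest domains do not differ beyond counting error in the female library. The low level of the Ogn domain depended on where its border lay. A cluster led by Npnt, a gene of the Ogn list, was placed in the Msx1, Msx2 and Dlx5 domain by a mean log2 fold of 0.74 against 0.68 for the Ogn list, and had 335 and 259 CPM of Cxcl14. Mesenchyme-like cells with UMIs of at least 2 of the Ogn, Foxf1 and Npnt genes had 142.1 and 110.3 CPM of Cxcl14, against 424 and 388 CPM in cells with none.

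Counted over all 8 domains by a log2 ratio of at least 1 in both libraries, the Dlx1, Dlx2 and Runx1 domain had Cxcl14 and Cxcr4 among its higher genes and Cxcl12 among its lower ones, and the Tcf21 and Aldh1a2 domain had Cxcl12 among its higher genes and Cxcl14 among its lower ones. Cxcl14 was also lower in the Foxd1, Ogn and Scx domains, where 1.32%, 2.9% and 2.39% of genes were higher and no member was. Cxcr4, with 0 or 1 counts a library and intervals that hold 0, also counted as lower in the Ogn, Rprm and Tcf21 domains, and no other member passed in the Rprm domain, where 0.543% of genes were higher and 6.47% lower. No member passed in the Sim1 domain (3.48% higher, 4.33% lower), in the Msx1, Msx2 and Dlx5 domain (1.5% and 4%) or in the clusters under no list (0.604% and 3.06%).

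The size of these differences, and in some settings the domains at the ends, depended on how the domains were formed. A ratio of the highest to the lowest domain chooses its domains anew in each setting, so it measures size and not direction. The log2 ratio of the highest to the lowest domain, over both libraries alike, was 4.40 for Cxcl12. It was 2.33 without doublet removal, 1.67 at a coarser clustering (resolution 0.5) and 2.72 at a finer one (resolution 2), with the same 2 domains at the ends. It was 1.27 with cells of at least 5000 UMIs, where the Sim1 domain was lowest, 1.86 with cells of at least 1000 UMIs, where the Foxd1 domain was highest, and 0.88 at a mitochondrial limit of 5%, with the Foxd1 domain highest and the Msx1, Msx2 and Dlx5 domain lowest. For Cxcl14 it was 4.76, and between 3.42 and 5.11 over all alternatives. Cells were also chosen by the domain genes themselves, without clusters, a measure added after seeing the data. The 497 male and 401 female mesenchyme-like cells with UMIs of at least 2 of Dlx1, Dlx2 and Runx1 had 27.1 and 42.9 CPM of Cxcl12, against 137.4 and 129.4 CPM in cells with none of the 3, a log2 ratio of -2.34 (-2.68 to -2.03) and -1.59 (-1.87 to -1.33). In the same cells Cxcl14 was at 882 and 664 CPM against 296 and 286 CPM. The 356 and 249 cells with UMIs of at least 2 genes of the Aldh1a2, Tcf21 and Wt1 list had 241 and 284 CPM of Cxcl12, against 116.4 and 111.6 CPM in cells with none. For the Rprm, Pcdh10 and Spock3 list the choice of cells turned the male direction, since the cluster-based domain had 143 against 125.0 CPM in the other male mesenchyme-like cells and 119 against 121.1 CPM in the other female ones, with a female interval that holds 0 (-0.16 to 0.10). By its genes it was lower in both libraries, with 95.3 and 87.7 CPM of Cxcl12 in cells with at least 2 of its genes, against 173.5 and 169.0 CPM in cells with none.

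**Figure D4:**
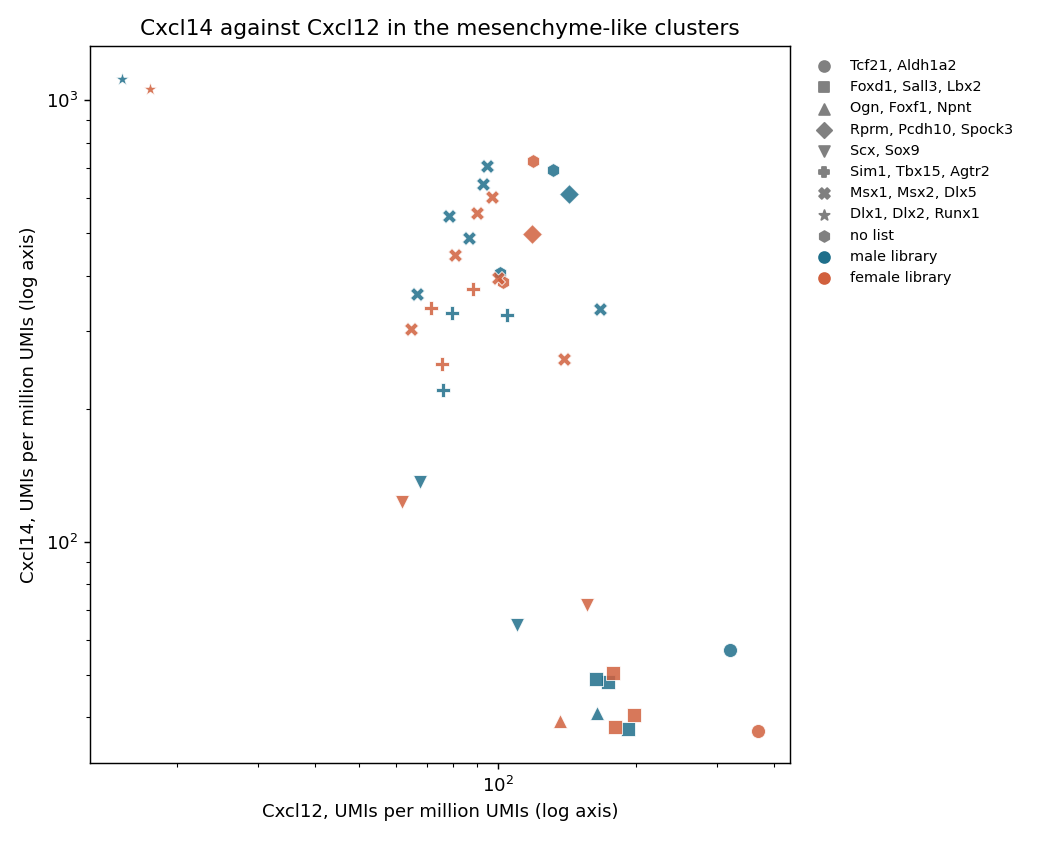
Level of Cxcl14 against Cxcl12 (CPM, both axes logarithmic) in the 20 mesenchyme-like clusters, once per library, with marker shapes for the domain. The Dlx1, Dlx2 and Runx1 cluster stands at the upper left with 15.2 and 17.4 CPM of Cxcl12, and the Tcf21 and Aldh1a2 cluster at the lower right with 320 and 369 CPM.

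Over the 20 clusters, on log2(CPM + 1) averaged over both libraries, Cxcl12 had a Pearson correlation of -0.66 with Cxcl14, 0.03 with Ackr3 and -0.70 with Cxcr4. These describe clusters that share 2 libraries, and give no test. The pattern of each ligand was alike in the libraries, with correlations of the male with the female clusters of 0.97 for Cxcl12 and 0.99 for Cxcl14, and also for Ackr3 (0.96), while that of Cxcr4, with its few counts, was 0.78. Among 9803 genes, those whose levels over the 20 clusters were most like Cxcl12 were Gucy1a1 (0.87), Sh3d19 (0.86), Tbc1d1, Got2 and Pcdh18. Most like Cxcl14 were Hdac9 (0.91), Etv4 (0.90), Spry4 (0.90), Cyr61 and Wwc2, of which Etv4 and Spry4 are known targets of fibroblast growth factor signalling. Most like Ackr3 were Gm26523, Lima1, Atrip, Hoxd13 and Tbx2, with correlations from 0.81 down to 0.76. For Cxcr4, whose cluster levels rest on few counts, they were Chic2 (0.84), Pcx, Tiparp, Pycr1 and Smap1. With the other cell classes added to the clusters (27 points), the gene most like Cxcl12 was Cntfr (0.89), most like Cxcr4 Sh3glb1 (0.89), most like Ackr3 Cbx2 (0.88) and most like Cxcl14 Dsc3 (0.82), which encodes a desmosomal cadherin of epithelia.

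Both ligands were also compared within single cells. In all mesenchyme-like cells, thinned to 2000 UMIs, Cxcl14 was found in 31.4% of male and 31.8% of female cells with a Cxcl12 UMI, against 38.8% and 37.3% of cells without one. Inside the Foxd1 domain the shares were 6.44% and 8.17% against 5.95% and 7.26%, and inside the Rprm domain 60.3% and 58.7% against 58.4% and 54.0%. In the Msx1, Msx2 and Dlx5 domain they were 51.4% and 43.5% against 54.9% and 47.1%. The intervals of cells with and without a Cxcl12 UMI overlapped in each domain and library, and did not overlap over all mesenchyme-like cells. Ackr3 was found in 11.7% and 12.0% of cells with a Cxcl12 UMI, against 12.0% and 11.8% without one, with overlapping intervals.

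Ackr3 had a map of its own in the mesenchyme. It was highest in the Rprm, Pcdh10 and Spock3 domain, with 110.9 CPM (99.7 to 123.0) in the male library, and the female library had 102.3 CPM (92.8 to 112.4), and next in the Scx and Sox9 domain, with 91.6 and 92.2 CPM, so that the female intervals of these neighbours overlap. The Msx1, Msx2 and Dlx5 domain had 77.1 and 71.2 CPM and the Foxd1 domain 58.7 and 57.0 CPM. Lower still were the Sim1 domain (49.9 and 43.7 CPM), the Ogn domain (44.0 and 54.0 CPM), the Dlx1, Dlx2 and Runx1 domain (41.9 and 31.8 CPM) and the Tcf21 and Aldh1a2 domain (36.6 and 41.7 CPM), with overlapping intervals between several neighbours in that order. No cluster-based domain differed from the other mesenchyme-like cells by a log2 ratio of 1 in both libraries. With cells chosen by the domain genes, added after seeing the data, this map changed in part. Cells with at least 2 of Sim1, Tbx15 and Agtr2 had log2 ratios of -1.24 and -1.17 to cells with none. For the Scx and Sox9 list the levels were 69.0 against 68.3 CPM and 64.7 against 65.4 CPM. For the Rprm list the ratios were 0.69 and 0.38, and for the Ogn list -0.15 and -0.05. The cluster range, a log2 of 2.05, was larger than in 85.3% of genes.

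The Scx and Sox9 domain was divided in Ackr3. Its cluster led by Pcdh17 and Lrp1b had 113.2 and 111.0 CPM, the highest of the 20, and its cluster led by Sox9 and Sparcl1 38.4 and 42.4 CPM. Cxcl12 was divided the other way, at 67.8 and 62.0 CPM in the first cluster and 110.0 and 156.5 CPM in the second. The 3 clusters of the Foxd1 domain, of which one is led by histone genes and one by mitotic genes, were closer, with 193, 174 and 163 CPM of Cxcl12 in the male and 199, 180 and 179 CPM in the female library. Ackr3 there was at 52.9, 45.7 and 74.0 CPM in the male and 51.3, 49.0 and 66.3 CPM in the female library, highest in the mitotic cluster.

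Mesenchymal Cxcr4 came from 47 male and 67 female cells, of which all but 1 in each library had a single UMI. The Dlx1, Dlx2 and Runx1 domain had 3.68 CPM (8 counts; 1.59 to 7.26) and 2.49 CPM (4 counts; 0.679 to 6.38), against 0.53 and 0.73 CPM in the other mesenchyme-like cells. The log2 ratio was 2.80 (1.49 to 3.92) in the male library and 1.77 in the female library, where the interval holds 0 (-0.15 to 3.20). In the Sim1 domain the female library had 2.07 CPM (32 counts), against 0.487 CPM in the other cells, a log2 ratio of 2.09 (1.36 to 2.82), and the male library 1.08 CPM (12 counts) against 0.540 CPM, with an interval of -0.08 to 1.97. By the domain genes, a measure added after seeing the data, the Sim1 ratios were 1.82 (0.11 to 3.18; 5 male counts) and 3.09 (2.34 to 3.83; 29 female counts). For Dlx1, Dlx2 and Runx1 they were 2.68 (1.42 to 3.78; 9 male counts) and 1.69 (0.18 to 2.91; 6 female counts). The Ogn domain had no Cxcr4 UMI in 607 male and 575 female cells, where 3 counts would have been 0.972 and 0.906 CPM. The 9 endothelium markers were summed in mesenchyme-like cells to 13.1 and 10.9 CPM, 0.254% and 0.201% of their endothelial level, with none at 0.

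**Figure D5:**
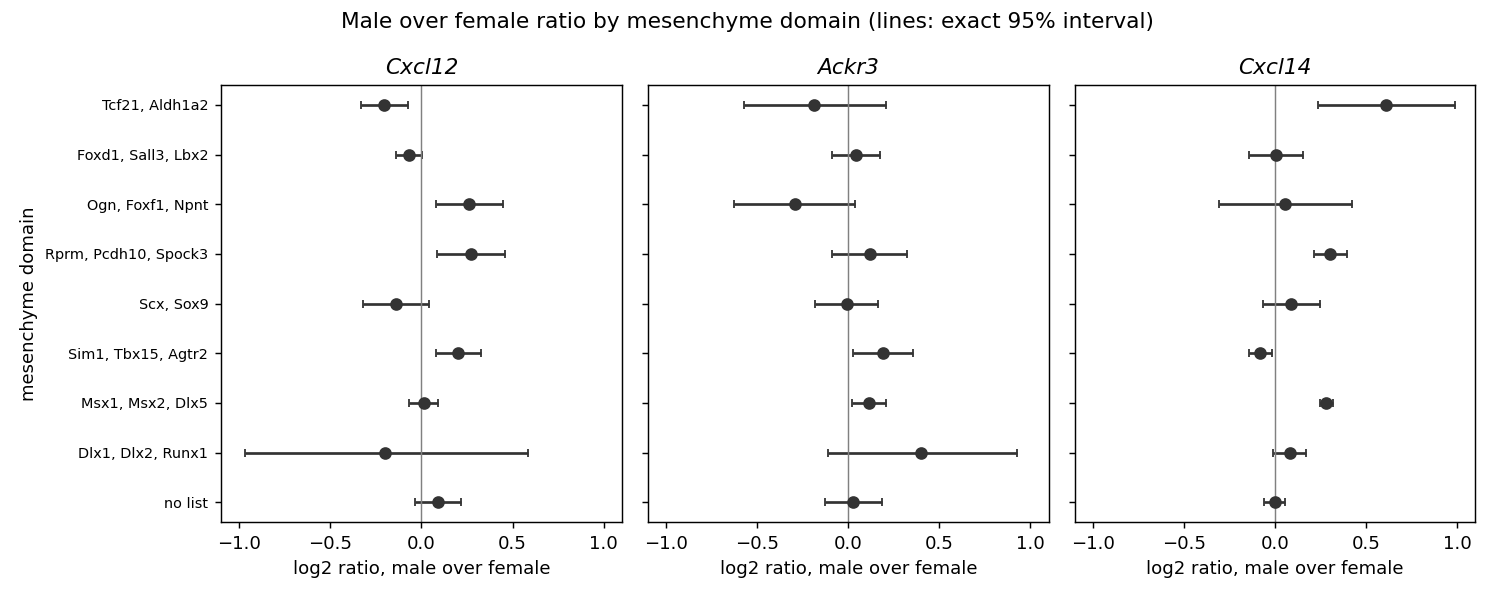
Log2 ratio of the male to the female library for Cxcl12, Ackr3 and Cxcl14 in each mesenchyme domain, with exact 95% intervals for counting error and no replicates. Cxcl14 in the Tcf21 and Aldh1a2 domain lies highest at 0.61, and Cxcl12 in that domain lies below 0 at -0.205.

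In mesenchyme-like cells the log2 ratio of the male to the female library was 0.06 for Cxcl12 (0.02 to 0.10), -0.30 for Cxcr4 (-0.87 to 0.25), 0.07 for Ackr3 (0.01 to 0.12) and 0.15 for Cxcl14 (0.13 to 0.17). The intervals of Cxcl12, Ackr3 and Cxcl14 lie above 0, as did those of 17.5% of 13085 genes, while 28.3% lay below and 45.8% thus left out 0. None of the 4 reached a size of 0.4, which 4.81% of genes did, and 29.0% of genes had a smaller absolute ratio than Cxcl12, 34.6% than Ackr3 and 66.3% than Cxcl14. Cxcr4, with 48 and 68 counts, had a larger absolute ratio than 90.8% of genes, and an interval that holds 0.

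By domain the direction varied. Cxcl12 was lower in the male Tcf21 and Aldh1a2 domain, at 320 against 369 CPM (log2 -0.205, -0.33 to -0.08), a domain where 9.32% of genes had an interval below 0. It was higher in the male Ogn, Rprm and Sim1 domains, by 0.26, 0.27 and 0.20, where 6.21%, 5.59% and 11.9% of genes had an interval above 0. Cxcl14 was higher in the male Tcf21 and Aldh1a2 domain by 0.61 (0.24 to 0.99; 208 and 86 counts), in the Rprm domain by 0.30 and in the Msx1, Msx2 and Dlx5 domain by 0.28, where intervals above 0 were found for 6.64%, 5.59% and 10.2% of genes. In the Sim1 domain it was at -0.08 (-0.14 to -0.02). Ackr3 was higher in the male Sim1 domain by 0.19 and in the male Msx1, Msx2 and Dlx5 domain by 0.11, and in the Sim1 domain 22.4% of genes had an interval below 0. No member had an interval without 0 in the Foxd1 domain (10.2% of genes above 0 and 16.7% below), the Scx domain (6.35% and 12.5%), the Dlx1, Dlx2 and Runx1 domain (4.6% and 6.98%) or the clusters under no list (7.04% and 13.6%). Below 0 lay 9.63% of genes in the Ogn domain, 9.82% in the Rprm domain and 20.6% in the Msx1, Msx2 and Dlx5 domain, with no member. Over the 20 clusters Cxcl14 was higher in the male library in 13 and Cxcl12 in 10.

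Outside the mesenchyme, Ackr3 was lower in male than female endothelium-like cells (12.9 against 25.1 CPM; log2 -0.96, -1.71 to -0.22) and Cxcl12 in male than female glia and neural crest-like cells (57.5 against 113.6 CPM; log2 -0.98, -1.85 to -0.19). Without the highest cell of each library these ratios were -1.005 (-1.81 to -0.20) and -1.08 (-2.04 to -0.22). Taken by subcluster in that way, the Ackr3 ratio was -1.94 (-3.48 to -0.56) in the arterial-like cells. It was -0.27 in the haemoglobin-led and -0.13 in the cell cycle-led subcluster, with intervals that hold 0. Of genes with at least 20 counts in endothelium-like cells 4.43% had an interval below 0 and 5.79% above, and in glia and neural crest-like cells 7.76% and 4.97%, while 12% of genes with at least 100 counts in endothelium-like cells had an absolute ratio of at least 0.4. For endothelial Cxcr4 the ratio was -0.46 with an interval of -1.07 to 0.17, and for epithelial Cxcl14 -0.13 (-0.21 to -0.05), where 14.4% of genes reached 0.4 and neither Cxcl14 nor Ackr3 did, and where intervals lay below 0 for 6.77% of genes and above for 3.25%. Without the highest cell of each library the epithelial Cxcl14 ratio was -0.06, with an interval that holds 0 (-0.15 to 0.03).

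Cxcl14 also had intervals of the male over female ratio that leave out 0 in 3 small classes where it was low. In skeletal muscle-like cells it had 22 counts in 19 male and 7 counts in 54 female cells, a log2 ratio of 3.25 (1.97 to 4.72), and 2.43 (0.83 to 4.17) without the highest cells, in a class where 4.47% of genes had an interval above 0 and 4.71% below. The 22 male UMIs lay in 4 cells, 2 of which held at least 5. The male and female shares of cells with a UMI, 21.1% (6.05 to 45.6) and 13.0% (5.37 to 24.9), have overlapping intervals. In glia and neural crest-like cells Cxcl14 had 13 and 10 counts, a log2 ratio of 1.31 (0.0043 to 2.66), and in immune-like cells 2 and 10 counts, a log2 ratio of -2.81 (-6.04 to -0.57), where 3.97% of genes with at least 20 counts lay below 0 and 3.43% above. Without the highest cells both intervals hold 0 (-1.72 to 2.83 and -7.75 to 1.61).

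The other genes of the pathway were taken from lists of chemokines, receptors and their partners. Of 35 other chemokine ligands, 13 reached 100 counts, and 9 of these were highest in immune-like cells, as were 15.6% of all 13580 genes with at least 100 counts, among them Pf4 (1241 CPM in the male library, and the female library had 1282 CPM) and the macrophage chemokines Ccl4 (1482 and 1013 CPM) and Ccl3 (893 and 807 CPM). Of 21 other chemokine receptors 4 reached 100 counts, the immune receptor Cx3cr1 (691 and 659 CPM in immune-like cells) and the atypical receptor Ccrl2 highest in immune-like cells, the scavenger Ackr4 highest in mesenchyme-like cells (1.54 and 0.895 CPM) and Ackr1 highest in erythroid-like cells (2.84 and 5.39 CPM).

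Of the 13 measured coupling genes 5 were highest in endothelium-like cells, as were 12.6% of all genes with at least 100 counts, led by Gnai2, the inhibitory G protein subunit through which Cxcr4 signals, with 1364 and 1450 CPM there, against 368 and 405 CPM in mesenchyme-like cells. The arrestin gene Arrb2 was highest in immune-like cells, with 111.0 and 101.3 CPM. Ramp2 and Calcrl, which form a receptor for adrenomedullin, a peptide that Ackr3 also binds, were at 646 and 589 CPM and at 84.6 and 48.7 CPM in endothelium-like cells, against 23.0 and 16.8 CPM and 8.13 and 6.73 CPM in mesenchyme-like cells. Among genes reported elsewhere to regulate Cxcl12, 4 of 6 (Hif1a, Ebf1, Ebf3 and Foxc1) were highest in endothelium-like cells, beside the same 12.6% of all genes, where Cxcl12 was at 4.84 and 3.81 CPM. Tbx3, a regulator of appendage outgrowth, was highest in mesenchyme-like cells (205.3 and 207.0 CPM). Of 12 measured genes that process Cxcl12 or hold it in the matrix, 4 were highest in mesenchyme-like cells, as were 17.2% of all genes, among them the heparan sulfate carrier Sdc1 (125.9 and 124.0 CPM), while Hspg2, the basement membrane proteoglycan perlecan, was at 318 and 314 CPM in endothelium-like cells. In mesenchyme-like cells 8 of these 12 had a male over female interval below 0 and 1 above, beside 28.3% and 17.5% of all genes.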

How the data were processed

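The deposited files hold raw UMI counts per gene and barcode for 1 male and 1 female library, for which the submitters' processing notes name Cell Ranger 3.1 and the mm10 build, with no normalization by the authors and with all 6794880 barcodes listed. Per the labels' protocols, 3' libraries (kit version 3.1) were made from collagenase-digested tissue pooled by sex. Whether introns were counted, and the annotation used, is not given in the sources used here. Of the gene IDs, 99.6% matched GENCODE M21 of the same build.

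The members and the gene lists were chosen with earlier results of these data known. Barcodes over the limits on UMIs, genes and mitochondrial share numbered 17254 male and 18711 female. Scrublet (scanpy 1.11.5) marked 0% in both at its automatic threshold and so had not worked; cells were taken out from the highest score down, 0.8% for every 1000 cells, which removed 2382 male (13.8%) and 2801 female (15.0%) barcodes. Clustering used 1989 variable genes without the members, sex-linked, haemoglobin and mitochondrial genes, 30 principal components, 15 neighbours and Leiden resolution 1 (igraph 0.11.9). A class needed a mean log2 fold of 2 over its markers (pseudocount 5 CPM, 3 detected markers), and a domain a mean log2 fold of 0.5 over 2 detected genes, since Wt1 of the Aldh1a2 and Tcf21 list was not detected. Subclusters used resolution 0.5. Domain clusters lean on their lists unevenly, and 1 Msx2 cluster scored nearly as high for the Ogn list. The genes named are, from each list, up to 8 with at least 100 counts and the highest level in any class, the genes of highest correlation with each member among 9803 genes with at least 1000 counts, and the 2 leading genes of a cluster.

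No test was possible across samples, as each sex is a single library. Ratios have exact conditional intervals, levels exact Poisson and shares exact Clopper-Pearson intervals (95%, counting error only). Only the ratio intervals were tried on simulated data. Those data held the same counting error alone, so UMIs gathered in few cells were not covered. Xist was at 1328 CPM in the female and 0.046 CPM in the male library, as labelled. Alternatives were 3 limits on cells, no doublet removal, 2 resolutions, clustering with the members, 5 ways of scaling or weighting, and, added after seeing the data, domains by their genes and groups without the cell of most UMIs.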

Additional observations from a re-analysis of the deposited data

Results flagged for a closer look

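The male over female ratio of 2 members pointed in opposite directions in different mesenchyme domains, with intervals for counting error that leave out 0 on both sides. The difference between domains was not tested, since each sex is 1 library. Cxcl12 was higher in the male library in the Ogn, Foxf1 and Npnt domain (log2 0.26), the Rprm, Pcdh10 and Spock3 domain (0.27) and the Sim1, Tbx15 and Agtr2 domain (0.20), and lower in the Tcf21 and Aldh1a2 domain (-0.205). Cxcl14 was higher in the male library in the Tcf21 and Aldh1a2 domain (0.61), the Rprm, Pcdh10 and Spock3 domain (0.30) and the Msx1, Msx2 and Dlx5 domain (0.28), and lower in the Sim1, Tbx15 and Agtr2 domain (-0.0804). In the Tcf21 and Aldh1a2 domain the ratios of both ligands had opposite signs, with 1172 and 851 counts of Cxcl12 and 208 and 86 counts of Cxcl14 in the male and female library.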

How the results depend on the processing

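Of 199 values under 12 alternatives and 1 added after seeing the data, 197 kept their sign. Among them, the ratios of highest to lowest domain, 12 values for each member, choose their domains anew each time. Such a ratio cannot fall below 0 unless a floor of 3 counts enters, so its sign is no check. The values reversed were the Ackr3 sex ratio in mesenchyme-like cells (-0.061) and the Cxcr4 ratio of highest to lowest domain (-0.19, against a floor of 3 counts), both at a mitochondrial limit of 5%, which left 1213 male and 1104 female cells. At that limit the sex ratio of Cxcl14 was 0.10, the endothelial ratios of Cxcl12 and Ackr3 in the male library were -3.24 and -0.68, the epithelial ratios of Cxcl14 2.79 and 2.85, and the domain ratios 0.88 for Cxcl12, 1.21 for Ackr3 and 3.42 for Cxcl14. Too few cells were left there for other class values, and 0 counts left none for Cxcl12 in thinned female endothelium-like cells. The domain ratio of Cxcl12, 4.40 in the main analysis, was 1.27 at 5000 UMIs, 1.86 at 1000 UMIs, 2.33 without doublet removal, 1.67 and 2.72 at resolutions 0.5 and 2, 3.60 with the members among the clustering genes and 2.91 by the domain genes. That of Cxcl14, 4.76, was 3.51, 4.33, 3.42, 4.01, 4.38, 4.97 and 4.04 under the same alternatives, 5.06 with cells thinned to 2000 UMIs and 5.11 with free RNA subtracted. That of Ackr3, 1.53, was 1.05 without doublet removal and 0.92 at resolution 0.5. The domains at the ends changed in some alternatives, so these ratios do not all compare the same pair, and the cause was not tested. Cxcl12 in endothelium-like over mesenchyme-like cells was -3.31 and -2.82 without doublet removal and -5.91 and -7.21 with free RNA subtracted. Cxcl14 in epithelium-like over mesenchyme-like cells was 2.20 and 2.35 without doublet removal, 2.32 and 2.44 as a mean over cells, and in the female library 2.60 at 5000 UMIs, 2.56 at 1000 UMIs and 2.47 thinned. Thinned, the endothelial ratios were 6.35 and 5.94 for Cxcr4 and -4.19 and -0.80 for Ackr3, the female immune ratio of Cxcr4 was 6.20, and the sex ratios of Cxcl12 and Cxcl14 were 0.10 and 0.11. As a mean over cells the male endothelial ratio of Cxcr4 was 5.84. Leaving out the cell of most UMIs, also added after seeing the data, kept the direction of Cxcl14 and Cxcr4 in the subclusters named, and left intervals that hold 0 for the male arterial-like Cxcl12 ratio (1.83) and for the male over female Cxcl14 ratios of epithelium-like (-0.06), glia and neural crest-like (0.61) and immune-like cells (-2.03). No paired analysis was possible because each sex is 1 library. Depth limits Cxcr4 most, with 121 male and 129 female UMIs in all.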
